A study of Homo sapiens with 30 samples.

Results

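The liver X receptors and the sterol efflux genes described here are 6 genes: the receptors NR1H2 (LXR beta, ENSG00000131408.15) and NR1H3 (LXR alpha, ENSG00000025434.19), the cholesterol transporters ABCA1 (ENSG00000165029.17) and ABCG1 (ENSG00000160179.19), the ubiquitin ligase MYLIP (ENSG00000007944.15) and the lipoprotein receptor SCARB1 (ENSG00000073060.17). They were taken by symbol, through the Ensembl identifier without its version, from a table of 61597 genes, and all 6 were found. All 6 passed the filter for testing, a level of at least 1 CPM (reads of a gene scaled to a fixed library total) in at least 5 libraries, but ABCG1 reached 1 CPM in only 8 of the 30 libraries.

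The cells were LX2, a human line that stands for hepatic stellate cells in their activated state, the liver cells that lay down scar matrix in fibrosis. Every library comes from that 1 line. Cells were grown with docosahexaenoic acid (DHA, an omega-3 fatty acid), oleic acid (OLA, a monounsaturated fatty acid) or vehicle, and then with betacellulin (BTC, a growth factor that binds ErbB receptors) or its vehicle. Per the labels' protocols each fatty acid was at 50 µM on albumin at 20 µM, for 2 cycles of 48 h (another passage of the protocol gives 96 h). BTC was at 20 ng/ml for 72 h, and medium with 1% serum was common to all groups. The 6 groups were DHA+BTC, DHA+Veh, OLA+BTC, OLA+Veh, Veh+BTC and Veh+Veh, the pretreatment being named first, with 5 libraries each. The number after a group is its experiment, and each of the 5 experiments held 1 library of every group. The labels do not say whether the 5 were separate thaws or passages, so p-values measure only the spread between these cultures.

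LXRs are nuclear receptors that pair with retinoid X receptors on DNA and are switched on by oxysterols, which accumulate when a cell holds surplus cholesterol. Their classical targets move cholesterol out of the cell: ABCA1 loads it onto lipid-poor apolipoprotein A-I and ABCG1 onto mature high-density lipoprotein. MYLIP, also called IDOL, is another LXR target, and it marks certain lipoprotein receptors for degradation, so that uptake falls while efflux rises. SCARB1 (SR-BI) is the receptor through which high-density lipoprotein exchanges cholesterol with cells.

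The promoters of ABCA1 and MYLIP are shown because the 2 genes share a regulator by textbook knowledge. In these libraries MYLIP fell with DHA against vehicle, while no change of ABCA1 was detected. Whether the 2 responses differ was not settled. The exact sign-flip permutation test gave p = 0.0625, the smallest that 5 experiments allow. Whether the promoter letters bear on either response was not tested. Each stretch is the 250 bases just before the annotated start in RefSeq (GRCh38.p14), written 5′ to 3′ on the strand of the gene. ABCA1 lies at chr9:104928156-104928405 on the minus strand, and capitals mark an E-box (CACGTG) and a match to the DR4 repeat (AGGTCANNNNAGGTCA, the spacing that LXR with its partner binds). MYLIP lies at chr6:16128836-16129085 on the plus strand, and capitals mark 2 CCAAT boxes read on the opposite strand.
ABCA1: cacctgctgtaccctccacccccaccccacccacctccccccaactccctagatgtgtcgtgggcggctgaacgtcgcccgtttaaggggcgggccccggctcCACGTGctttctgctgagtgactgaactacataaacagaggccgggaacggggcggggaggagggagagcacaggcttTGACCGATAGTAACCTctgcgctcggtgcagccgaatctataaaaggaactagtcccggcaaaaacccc
MYLIP: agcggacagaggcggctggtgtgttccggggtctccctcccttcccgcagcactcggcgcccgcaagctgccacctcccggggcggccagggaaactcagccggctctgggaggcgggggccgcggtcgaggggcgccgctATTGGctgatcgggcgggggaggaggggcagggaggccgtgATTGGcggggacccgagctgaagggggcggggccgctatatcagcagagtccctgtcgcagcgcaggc

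The DR4 match in the ABCA1 stretch ran from base -69 to base -54 before the start, read AGGTTACTATCGGTCA on the opposite strand and had 2 mismatches, the most the search allowed. Of the 35116 RefSeq promoter stretches of the same length, 2.03% held such a match on either strand, and 6.34% held the E-box. The MYLIP stretch held neither, and bases outside these stretches were not searched. Its CCAAT boxes lay at bases -109 to -105 and -68 to -64, and 32.0% of all stretches held at least 1 CCAAT box. Both promoters held 3 GC boxes (GGGCGG), a motif found in 42.6% of stretches, and the GC boxes overlapped none of the capitals. Such matches describe letters and do not show binding. NR1H2 had 1 start and NR1H3 had 4 in the same table, none with a DR4 match or E-box, while ABCG1 and SCARB1 are named only.

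Depth ran from 1245182 to 9490142 reads a library (median 3683035), and the libraries with the fewest reads were DHA+BTC 5, then DHA+Veh 5, then DHA+BTC 4. A gene with no read could still reach 3 reads, which is 2.41 CPM in the shallowest library and 0.316 CPM in the deepest. Of the 9 stellate and mesenchymal markers, 7 had a median of at least 1 CPM, with VIM at 411 and COL1A1 at 801, while LRAT and DES, markers of stellate cells, were at 0 in 28 and 26 of 30 libraries. Of the 6 hepatocyte markers 0 had a median of at least 1 CPM. TTR was at 0 in all 30 libraries, but APOB and SERPINA1 were at 0 in only 17 and 13. Of the 5 endothelial markers 1 had such a median, PECAM1, with 3.6 CPM and a maximum of 42.3 CPM. Of the 6 macrophage markers 3 had such a median: CD14 (11.6 CPM), CSF1R (2.42 CPM) and PTPRC (1.33 CPM). Of the 4 cholangiocyte and epithelial markers 2 had it, CDH1 (16.2 CPM) and KRT7 (9.22 CPM). With limma, 1621 genes (10.7%) were called between DHA and vehicle (adjusted p under 0.05), of which 352 rose and 1269 fell, and the median of all 15137 tested genes was -0.13 on the log2 scale. That split rested on the scaling: with quantile normalization the median was -0.0018, and 520 genes rose and 661 fell.

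With DHA, MYLIP was the one gene of the 6 that was called. It averaged 1.90 ± 1.98 CPM in the DHA libraries, 5.63 ± 3.96 CPM in the oleic acid libraries and 6.19 ± 3.25 CPM in the vehicle libraries (SD, n = 10 each). MYLIP fell by 1.44 on the log2 scale with DHA against vehicle, and it was lower in each of the 5 experiments. The transporter ABCA1, the textbook LXR target, had a difference of 0.30 with an interval that spans 0. Among the 6 genes 0 rose and 1 fell, where 8.38% of all tested genes fell and 2.33% rose, and the median of the 6 was -0.25.

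**Figure D1:**
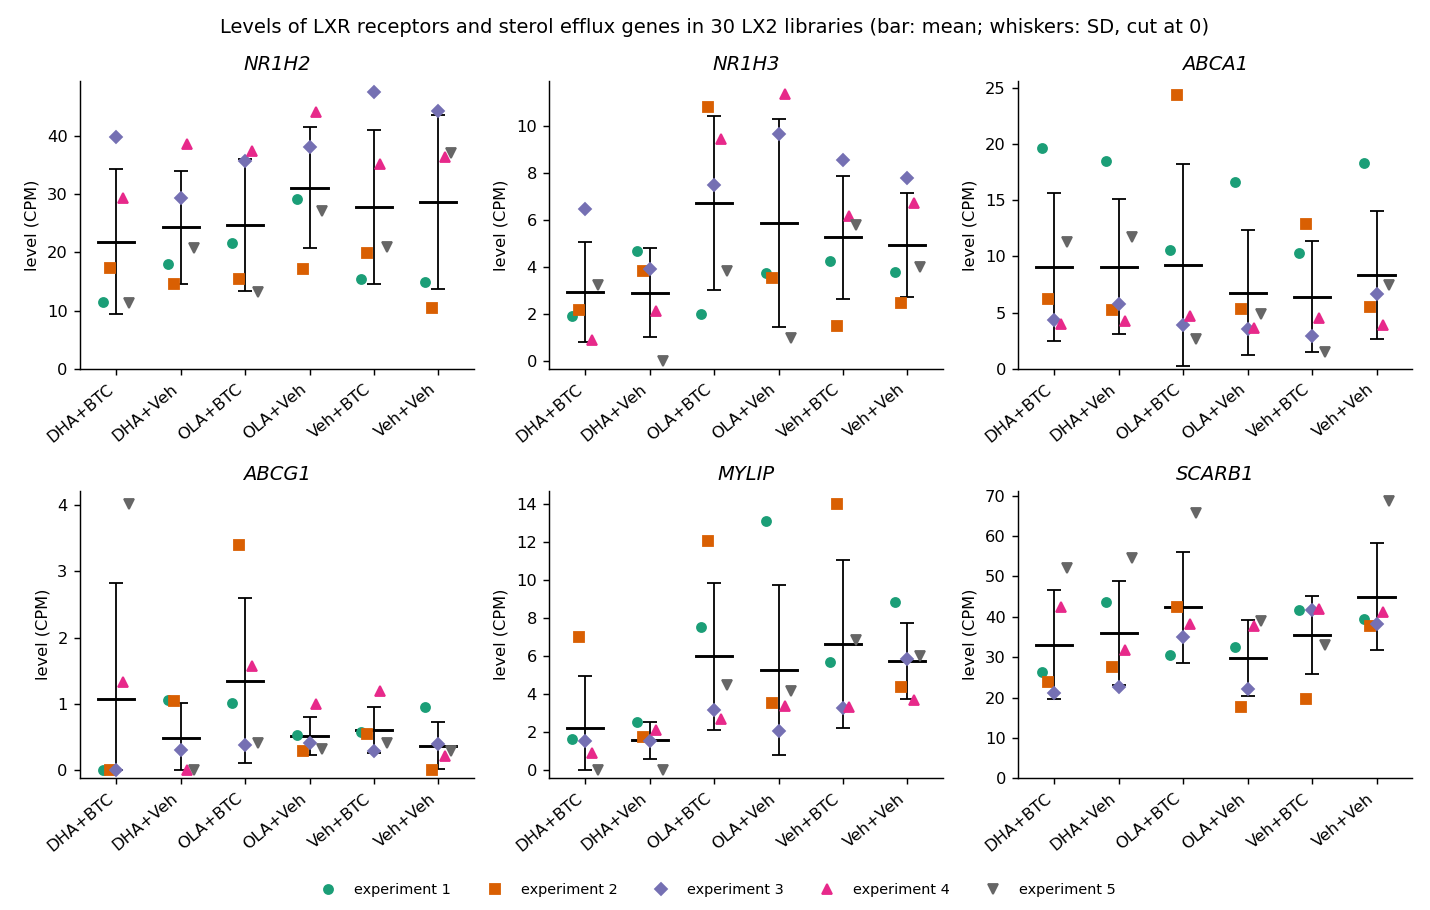
Levels of the 6 genes in CPM (vertical axis) in the 30 libraries, by group (horizontal axis), with 1 symbol per experiment, a bar at the mean and whiskers of 1 SD cut at 0 (n = 5 libraries a group). The MYLIP libraries with DHA lie between 0 and 2.55 CPM except for DHA+BTC 2 at 7.01 CPM, and ABCG1 stays under 4.1 CPM throughout.

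Of the receptors, NR1H2, the LXR form made in nearly all tissues, was present in every library. It ranged from 11.2 to 39.9 CPM in the DHA libraries (median 19.4), from 13.2 to 44.1 CPM with oleic acid (median 28.1) and from 10.4 to 47.6 CPM with vehicle (median 28.1). The 3 ranges overlapped almost wholly, and levels differed between experiments: NR1H2 averaged 39.2 ± 6.43 CPM in experiment 3 and 15.8 ± 3.19 CPM in experiment 2 (SD over 6 libraries). The limma difference of DHA from vehicle was -0.25 (SE 0.17, adjusted p = 0.384), and that of DHA from oleic acid was -0.29 (adjusted p = 0.286). NR1H2 was lower with DHA than with oleic acid in all 5 experiments, as were 13.9% of all tested genes.

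NR1H3, the LXR form that is high in liver and macrophages and is itself an LXR target in human cells, had far fewer reads. In DHA+BTC libraries 1 to 5 it stood at 1.91, 2.16, 6.49, 0.891 and 3.21 CPM, and in DHA+Veh libraries at 4.68, 3.83, 3.94, 2.12 and 0 CPM. In OLA+BTC libraries it stood at 2.01, 10.8, 7.49, 9.47 and 3.85 CPM, and in OLA+Veh libraries at 3.75, 3.53, 9.70, 11.4 and 0.968 CPM. In Veh+BTC libraries it stood at 4.28, 1.47, 8.57, 6.19 and 5.81 CPM, and in Veh+Veh libraries at 3.79, 2.47, 7.78, 6.73 and 3.99 CPM. The DHA libraries were below the vehicle libraries in experiments 3 to 5, and the DHA libraries overlapped the vehicle libraries in experiments 1 and 2. In experiment 2 both oleic acid libraries were above both vehicle libraries.

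Summed over libraries NR1H3 had 96 reads with DHA (3.17 CPM, exact Poisson 95% interval 2.57 to 3.87), 277 with oleic acid (6.595 CPM, 5.84 to 7.42) and 216 with vehicle (4.78 CPM, 4.17 to 5.47). These intervals cover counting error only. The limma difference of DHA from vehicle was -0.72 (SE 0.31, 95% interval -1.36 to -0.08), with an unadjusted p of 0.0283 and an adjusted p of 0.139. Against oleic acid it was -0.85 (95% interval -1.49 to -0.21, adjusted p = 0.0728), so NR1H3 passed the threshold in neither. Exons of NR1H3 overlap those of ACP2 on the other strand in GENCODE 29, and the sources used here do not give whether counting used strand. How reads on the shared bases were counted is therefore not known. How many 3′ tags fell on those bases was not measured. ACP2, a lysosomal phosphatase gene, averaged 65.9 ± 16.0 CPM with DHA and 83.8 ± 23.5 CPM with vehicle (SD, n = 10 each), a difference of -0.33 (adjusted p = 0.195).

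Of the efflux transporters, ABCA1 did not pass the threshold in either direction. Its level in DHA+BTC libraries 1 to 5 was 19.7, 6.20, 4.33, 4.01 and 11.2 CPM, and in DHA+Veh libraries 18.5, 5.23, 5.75, 4.24 and 11.7 CPM. In OLA+BTC libraries it was 10.6, 24.4, 3.93, 4.74 and 2.63 CPM, and in OLA+Veh libraries 16.6, 5.30, 3.51, 3.59 and 4.84 CPM. In Veh+BTC libraries it was 10.3, 12.9, 2.96, 4.52 and 1.45 CPM, and in Veh+Veh libraries 18.3, 5.49, 6.62, 3.91 and 7.42 CPM. Experiment 1 was high in every group, and the pretreatments overlapped.

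The limma difference of ABCA1 between DHA and vehicle was 0.30 (SE 0.28, 95% interval -0.27 to 0.87, adjusted p = 0.546). By experiment it was 0.44, -0.50, 0.13, -0.02 and 1.46 in experiments 1 to 5, so 3 of 5 were above 0 and experiment 5, which holds the 2 shallowest libraries, was the highest. Against oleic acid the difference was 0.27 (95% interval -0.29 to 0.84, adjusted p = 0.572). Leaving out the DHA libraries of experiment 5, a setting chosen after the data were seen, moved that second difference to -0.02.

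ABCG1 was close to the detection limit, with 0 to 11 reads a library and no read in 6 of 30. Pooled, it had 17 reads with DHA (0.561 CPM, Poisson 95% interval 0.327 to 0.899), 37 with oleic acid (0.881 CPM, 0.620 to 1.21) and 25 with vehicle (0.554 CPM, 0.358 to 0.817). Those intervals overlap, and the limma difference between DHA and vehicle was 0.06 (95% interval -0.48 to 0.61, adjusted p = 0.914). Its sign turned with the pseudocount, being -0.14 at a pseudocount of 0.25. No change of ABCG1 was detectable at this depth.

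MYLIP was the one gene called. In DHA+BTC libraries 1 to 5 it stood at 1.64, 7.01, 1.55, 0.891 and 0 CPM, from 6, 26, 5, 2 and 0 reads, and in DHA+Veh libraries at 2.55, 1.74, 1.51, 2.12 and 0 CPM, from 12, 5, 5, 8 and 0 reads. In OLA+BTC libraries it stood at 7.55, 12.1, 3.18, 2.71 and 4.46 CPM, and in OLA+Veh libraries at 13.1, 3.53, 2.06, 3.39 and 4.19 CPM. In Veh+BTC libraries it stood at 5.70, 14.0, 3.25, 3.33 and 6.85 CPM, and in Veh+Veh libraries at 8.85, 4.39, 5.84, 3.69 and 5.99 CPM. The DHA library was the lowest of its experiment and BTC state in all 10 cases. Of all tested genes 1.92% were lower than vehicle, and 2.5% lower than oleic acid, in 10 of 10 pairs. Across experiments the MYLIP range with DHA overlapped that with vehicle through DHA+BTC 2, which was high. It overlapped that with oleic acid also through OLA+Veh 3, which was below DHA+Veh 1 and DHA+Veh 4.

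Both DHA libraries of experiment 5 had no MYLIP read, in 1245182 and 1538581 reads, which allows levels of up to 2.41 and 1.95 CPM. The vehicle libraries of that experiment stood at 6.85 and 5.99 CPM, above those limits. Pooled over 10 libraries, MYLIP had 69 reads with DHA (2.28 CPM, Poisson 95% interval 1.77 to 2.88), 221 with oleic acid (5.26 CPM, 4.59 to 6.00) and 307 with vehicle (6.80 CPM, 6.06 to 7.60). The DHA interval lay below the other 2, but such intervals cover counting error only and leave out the spread between cultures.

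In the limma fit MYLIP fell by 1.44 on the log2 scale with DHA against vehicle (SE 0.28, 95% interval -2.03 to -0.86, adjusted p = 0.0011), which is a 2.72-fold difference on the log2(CPM + 1) scale. The differences in experiments 1 to 5 were -1.41, -0.94, -1.09, -0.89 and -2.89, so experiment 5 was lowest, and 11.6% of all tested genes were also lower in 5 of 5 experiments. Without the DHA libraries of experiment 5, the difference was -1.12 (adjusted p = 0.0124). It remained called in all 14 other settings and in all 35 fits that left out 1 library or 1 experiment. The values ran from -2.02 to -0.79 and the largest adjusted p was 0.0449, in the fit without experiment as a term.

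Against oleic acid MYLIP fell by 1.24 (SE 0.28, 95% interval -1.82 to -0.66, adjusted p = 0.0047). Genes that fell made up 8.96% of those tested in that comparison and genes that rose 2.4%. The differences in experiments 1 to 5 were -1.84, -0.71, -0.50, -0.73 and -2.41. This call was lost without the 3 shallowest libraries (difference -0.86, adjusted p = 0.101), without experiment 5 (difference -0.95, adjusted p = 0.0641) and in the fit without experiment as a term (adjusted p = 0.119). The comparisons with vehicle and with oleic acid share the DHA libraries and are not independent.

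Split by BTC, the MYLIP difference between DHA and vehicle was -1.43 with BTC (95% interval -2.25 to -0.61, adjusted p = 0.0401) and -1.46 without BTC (95% interval -2.28 to -0.64, adjusted p = 0.0578). Of all tested genes 2.46% fell with BTC and 0.945% without. The test of the difference between these MYLIP responses gave 0.03 (95% interval -1.14 to 1.19, adjusted p = 0.997). Without experiment as a term the difference with BTC was not called (adjusted p = 0.481). The call with BTC depended on single libraries: it was lost on leaving out DHA+BTC 1, 3, 4 or 5, or Veh+BTC 2, 3 or 5, and over 48 settings and omissions its adjusted p ran from 0.0079 to 0.481. Against oleic acid the difference was -1.31 with BTC (adjusted p = 0.0882) and -1.17 without BTC (adjusted p = 0.0997), where 1.12% and 2.38% of tested genes fell.

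**Figure D2:**
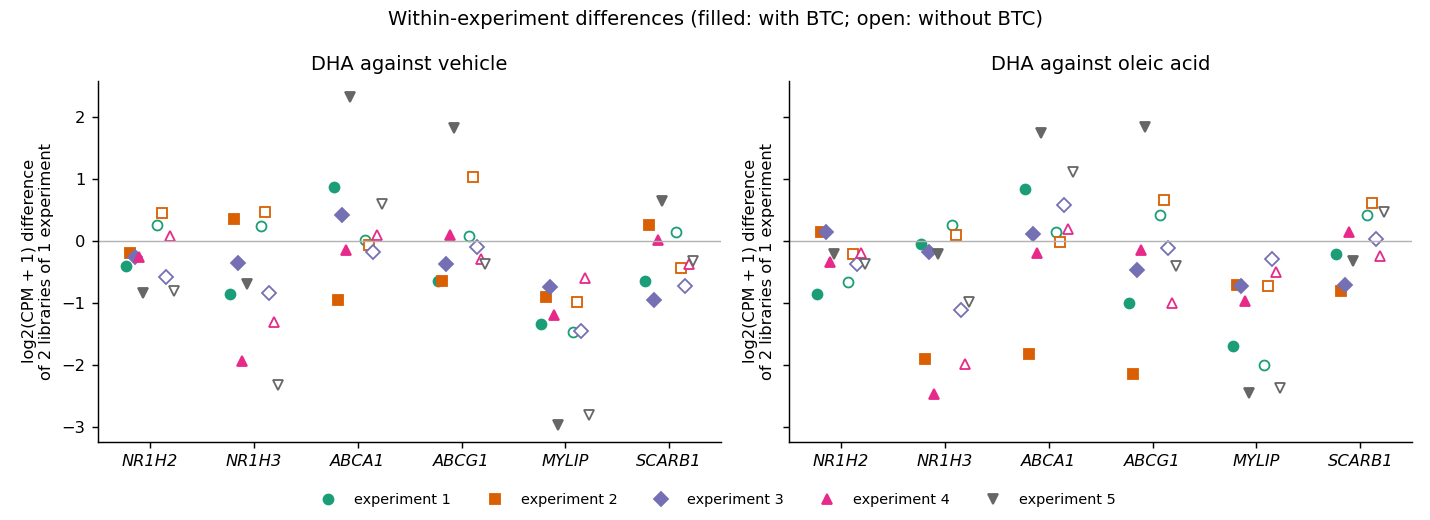
Difference of log2(CPM + 1) between the DHA library and the vehicle library (left) or the oleic acid library (right) of the same experiment and BTC state, for each of the 6 genes on the horizontal axis, filled symbols with BTC and open symbols without. All 20 MYLIP points lie below 0, whereas ABCA1 points lie on both sides.

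Other values moved with DHA too. The DHA libraries were shallower, with group medians of 3233378 reads for DHA+BTC and 3303443 for DHA+Veh, against 4201027 for Veh+BTC and 3641222 for Veh+Veh. The summed stellate and mesenchymal markers ran from 655 to 3066 CPM with DHA (median 1666). With vehicle they ran from 1379 to 3807 CPM (median 2929), and with oleic acid from 1117 to 3586 CPM (median 2838). The summed macrophage markers ran from 7.38 to 25.4 CPM with DHA (median 13.5) and from 8.01 to 43.4 CPM with vehicle (median 26.1). With oleic acid they ran from 10.3 to 74.2 CPM (median 33.5). Of these markers MARCO was at 0 in 26, CD163 in 17, LYZ in 9, PTPRC in 1 and CSF1R and CD14 in 0 of 30 libraries. PTPRC reached 27.8 CPM and CSF1R 28.4 CPM. The summed cholangiocyte and epithelial markers ran from 28.4 to 158 CPM with DHA (median 42.4), against 14.8 to 35.3 CPM with oleic acid (median 23.8) and 10.5 to 76.8 CPM with vehicle (median 24.1). The DHA median was the highest of these, with overlapping ranges. Of those 4 markers EPCAM was at 0 in 19, KRT19 in 4, and CDH1 and KRT7 in 0 of 30 libraries. CDH1 had a median of 16.2 CPM and a maximum of 149 CPM, and KRT7 a median of 9.22 CPM and a maximum of 22.5 CPM. CD14 alone averaged 8.70 ± 6.49 CPM with DHA and 21.0 ± 12.9 CPM with vehicle, and it fell by 1.19 (adjusted p = 0.0023). Their part in the MYLIP result was not tested, and in bulk RNA fewer cells of a type and less RNA per cell cannot be told apart.

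The responses of MYLIP and ABCA1 were set against each other directly. In each experiment the DHA difference of MYLIP minus that of ABCA1 was below 0, at -1.85, -0.44, -1.22, -0.87 and -4.35 in experiments 1 to 5. The mean was -1.75 ± 1.54 (SD, n = 5), and experiment 5, where both DHA libraries had no MYLIP read, was the lowest. Over 25 omissions of a library or an experiment the mean ran from -2.07 to -1.09. The exact two-sided sign-flip permutation test gave p = 0.0625, the smallest that 5 experiments allow, so the contrast could not have passed 0.05.

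SCARB1 was the highest of the 6 genes and was present in all libraries. It ranged from 21.0 to 54.6 CPM with DHA (median 29.6), from 17.7 to 65.7 CPM with oleic acid (median 36.4) and from 19.5 to 68.7 CPM with vehicle (median 40.3). The ranges overlapped throughout. The limma difference of DHA from vehicle was -0.24 (95% interval -0.55 to 0.08, adjusted p = 0.356), and that of DHA from oleic acid was -0.06 (95% interval -0.38 to 0.26, adjusted p = 0.843). At 60 to 374 reads a library, the first interval leaves out a fall greater than 0.55.

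**Figure D3:**
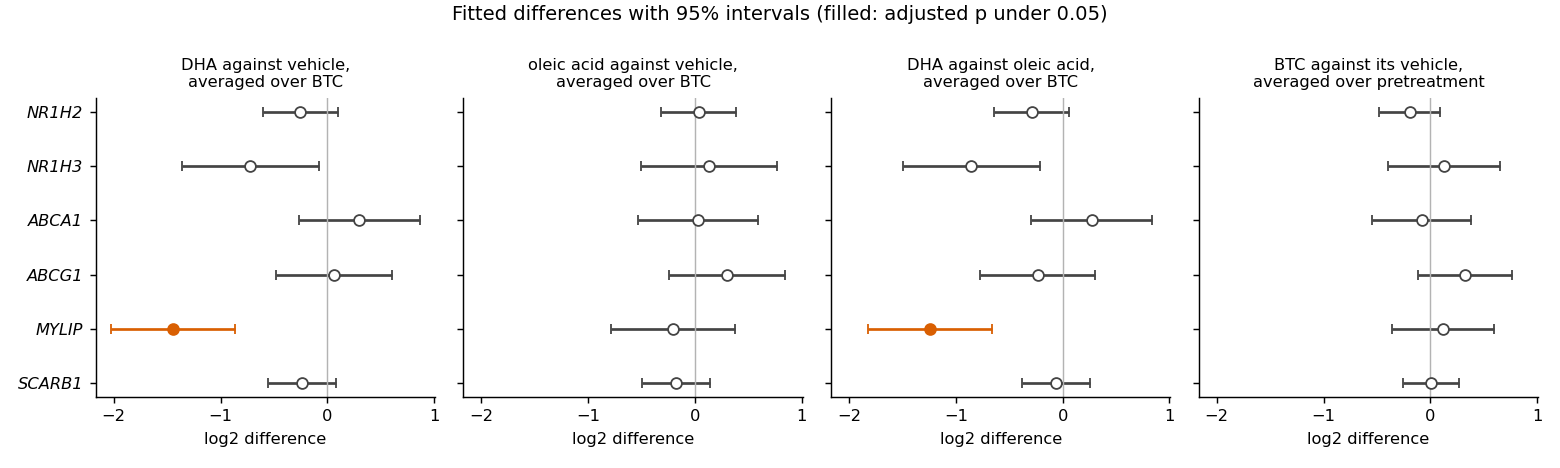
Fitted log2 differences of the 6 genes (points) with 95% intervals from the limma fit (lines) in 4 comparisons, each averaged over the other factor; filled orange points have an adjusted p under 0.05. MYLIP stands at -1.44 against vehicle and -1.24 against oleic acid, and no other gene has a filled point.

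Oleic acid moved none of the 6 genes past the threshold. The limma differences from vehicle were 0.04 for NR1H2, 0.13 for NR1H3, 0.03 for ABCA1, 0.30 for ABCG1, -0.20 for MYLIP and -0.18 for SCARB1, each with an adjusted p of 0.9995. Over all genes limma called 0 of 15137, 302 genes had an unadjusted p under 0.05, and edgeR and DESeq2 also called 0. For MYLIP the 95% interval was -0.78 to 0.38, so a fall the size of that with DHA lay outside it. ABCG1 was higher with oleic acid in all 5 experiments, as were 3.77% of tested genes, on 37 and 25 pooled reads.

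SCARB1 with oleic acid is given in full because its direction differed with BTC. With BTC, it was 30.4, 42.3, 35.0, 38.1 and 65.7 CPM in OLA+BTC libraries 1 to 5, against 41.6, 19.5, 41.7, 41.9 and 33.0 CPM in Veh+BTC. Without BTC, it was 32.4, 17.7, 22.1, 37.7 and 39.0 CPM in OLA+Veh, against 39.4, 37.6, 38.1, 41.2 and 68.7 CPM in Veh+Veh. In the absence of BTC the oleic acid library was lower in all 5 experiments, as were 3.33% of tested genes, while with BTC it was higher in experiments 2 and 5. The limma difference was 0.25 with BTC and -0.60 without BTC (adjusted p = 0.769 and 0.9999), and the interaction was 0.85 (95% interval 0.22 to 1.48, unadjusted p = 0.0102, adjusted p = 0.584).

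BTC did not move any of the 6 genes past the threshold either. Averaged over pretreatments, the limma differences of BTC from its vehicle were -0.19 for NR1H2, 0.13 for NR1H3, -0.08 for ABCA1, 0.32 for ABCG1, 0.12 for MYLIP and 0.01 for SCARB1, with adjusted p-values of 0.994 or more. Across all genes limma called 0 of 15137, 609 had an unadjusted p under 0.05, and edgeR and DESeq2 called 0. The widest of the 6 intervals was that of NR1H3, from -0.39 to 0.65.

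The BTC libraries of experiment 2 stood apart for MYLIP, and those after oleic acid and after vehicle also for ABCA1. MYLIP there was 7.01, 12.1 and 14.0 CPM with BTC after DHA, oleic acid and vehicle, and 1.74, 3.53 and 4.39 CPM without BTC. ABCA1 there was 6.20, 24.4 and 12.9 CPM with BTC and 5.23, 5.30 and 5.49 CPM without. The averaged BTC difference of experiment 2 was 1.52 for MYLIP and 1.11 for ABCA1, while in the other 4 experiments it ran from -0.57 to 0.08 for MYLIP and from -0.84 to 0.14 for ABCA1. Without those 3 BTC libraries, a setting chosen after the data were seen, the MYLIP difference between DHA and vehicle was -1.51 (adjusted p = 2.87e-04).

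The 6 genes differed in what their variance followed. Experiments took 69.1% of the variance of log2(CPM + 1) of NR1H2, 54.3% of that of ABCA1 and 46.4% of that of SCARB1, near or above the all-gene median of 47.7%. For MYLIP the pretreatment took 45.1% and experiments 22.7%, where the all-gene median for pretreatment was 4.68%. For NR1H3 the pretreatment took 19.6%. ABCG1 had 7.39% between experiments, and its reads are few.

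**Figure D4:**
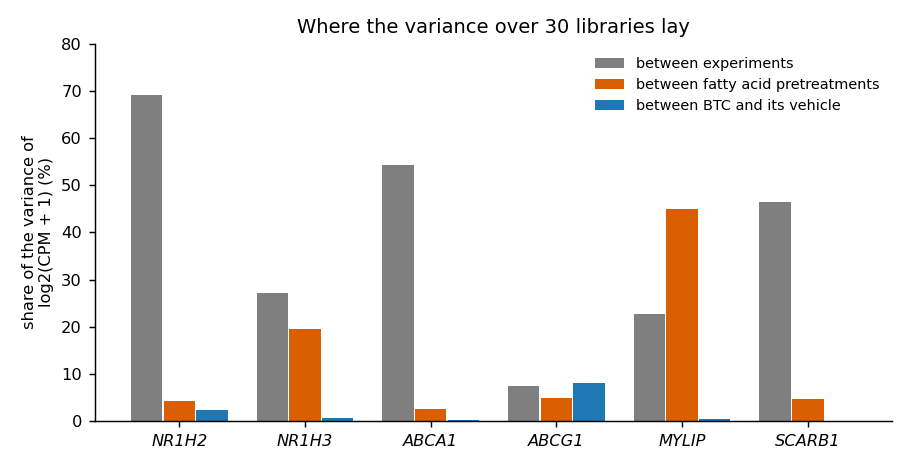
Share of the variance of log2(CPM + 1) over 30 libraries (vertical axis, percent) that lay between experiments, between fatty acid pretreatments and between BTC and its vehicle, for each of the 6 genes. The pretreatment bar is the tallest for MYLIP (45.1%), and the experiment bar for NR1H2 (69.1%), NR1H3, ABCA1 and SCARB1.

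Because these are 3′ tags, with about 1 tag a transcript, CPM can be set side by side between genes without scaling for length. Averaged over 30 libraries, SCARB1 stood at 37.0 CPM, NR1H2 at 26.4, ABCA1 at 8.16, NR1H3 at 4.78, MYLIP at 4.57 and ABCG1 at 0.732 CPM. SCARB1 was above NR1H2 in 21 of 30 libraries and ABCA1 above NR1H3 in 19, so those neighbours overlapped. NR1H3 was above MYLIP in 14 libraries and below it in 12, with no order between them. The steps from NR1H2 to ABCA1 and from MYLIP to ABCG1 held in 25 and 27 libraries.

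Likeness across libraries was measured by Pearson's r of log2(CPM + 1) after subtracting each experiment's mean, over 30 libraries that share batches of 6 and the treatments. Among the 6 genes the highest values were 0.56 for NR1H2 with MYLIP, 0.44 for NR1H3 with ABCG1 and 0.42 for NR1H3 with MYLIP. ABCA1 and MYLIP had -0.18. Among genes with a mean of at least 5 CPM, those most like MYLIP were FLNC (0.84), MAN1B1 (0.83) and CORO7 (0.83), and those most like ABCA1 were MAFG (0.82), GBE1 (0.80) and KIFC3 (0.79). NR1H3 was closest to RGS4 (0.74), PCM1 (0.73) and MR1 (0.72), and NR1H2 to BCAT2 (0.76), COX6A1 (0.73) and CIAO3 (0.72). ABCG1 was closest to CEBPA (0.70), APOC1 (0.68) and CD36 (0.64), and SCARB1 to NFYC (0.68), TTC7B (0.67) and HENMT1 (0.65). The values of r for ABCG1, that with NR1H3 included, rest on 0 to 11 reads a library, with 1 CPM reached in 8 of 30.

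The rest of the pathway was read from lists, each given by its counts and its median beside the all-gene median of -0.13. For the counts, 8.38% of all tested genes fell and 2.33% rose with DHA against vehicle. Among 14 tested LXR partners and coregulators 0 rose and 1 fell with DHA against vehicle, at a median of -0.06. RXRA, the retinoid X receptor that pairs with LXR, averaged 122 ± 30.4 CPM with DHA and 127 ± 38.2 CPM with vehicle, a difference of -0.04 that turned positive under other scalings (adjusted p = 0.875). RXRB, its relative, had -0.35 (adjusted p = 0.0949). The gene that fell was MED1, a Mediator subunit that binds nuclear receptors, at -0.65 (adjusted p = 0.0339), and this call was lost in 11 of 30 single-library omissions. The MED1 call held in 4 of 14 settings and 2 of 5 omissions of an experiment.

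Of 14 other LXR target genes tested 0 rose and 3 fell, at a median of -0.10. SCD, the stearoyl-CoA desaturase, averaged 332 ± 165 CPM with DHA and 828 ± 404 CPM with vehicle and fell by 1.31 (adjusted p = 4.96e-05). FASN, the fatty acid synthase, fell by 0.71 (adjusted p = 0.0076), and LPCAT3, which loads polyunsaturated chains into phospholipids, fell by 0.45 (adjusted p = 0.0207). The SCD call held in all 14 settings and all 5 omissions of an experiment, that of FASN in 9 and 2, and that of LPCAT3 in 7 and 1. All 3 have roles in making or remodelling fatty acyl chains, and none exports sterol. SREBF1, the lipogenic factor that LXR induces, averaged 5.36 ± 4.11 CPM with DHA and 9.35 ± 5.45 CPM with vehicle, with a difference of -0.84 that did not pass (adjusted p = 0.119). The lipoprotein genes PLTP and APOE had differences of 0.25 and 0.07 (adjusted p = 0.406 and 0.902).

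Of the receptors that MYLIP marks for degradation, LRP8 fell by 0.65 (adjusted p = 0.0097), and VLDLR had -0.21 from about 2.05 CPM with vehicle (adjusted p = 0.752). The LRP8 call held in 9 of 14 settings, where the largest adjusted p was 0.684, and in 3 of 5 omissions of an experiment. Protein was not measured.

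Among 6 tested genes of oxysterol production and removal 0 rose and 2 fell, at a median of -0.56. EBP, a sterol isomerase, was 1 of them, at -0.57 (adjusted p = 0.0013). CYP27A1, the enzyme that makes an oxysterol ligand of LXR, averaged 1.03 ± 0.91 CPM with DHA and 2.48 ± 1.90 CPM with vehicle, and its difference of -0.69 did not pass (adjusted p = 0.180). Of 14 tested genes of intracellular cholesterol transport and storage 0 rose and 1 fell, at a median of -0.13. It was LIPA, the lysosomal acid lipase, at -0.47 (adjusted p = 0.0361), a call lost in 13 of 30 single-library omissions. The LIPA call held in 4 of 14 settings and 0 of 5 omissions of an experiment.

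The SREBP2 programme, which makes sterol when cholesterol is scarce, held 19 tested genes, of which 1 rose and 11 fell, at a median of -0.61. MVK fell by 1.29, MVD by 1.18, DHCR7 by 1.16 and ACAT2 by 0.95, with adjusted p-values of 1.80e-04 or less. Each was lower in all 5 experiments, as were 11.6% of all tested genes. HMGCS1, a synthase of the mevalonate pathway, fell by 1.00 and INSIG1, which holds SREBP2 back, by 0.61. INSIG2, named after its value was seen as the single rise, rose by 0.91 (adjusted p = 0.0402), a call lost in 11 of 30 single-library omissions. The INSIG2 call held in 6 of 14 settings and 1 of 5 omissions of an experiment. Of the PPAR genes, 2 were tested and neither passed, with PPARD at 0.46 (adjusted p = 0.471).

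**Figure D5:**
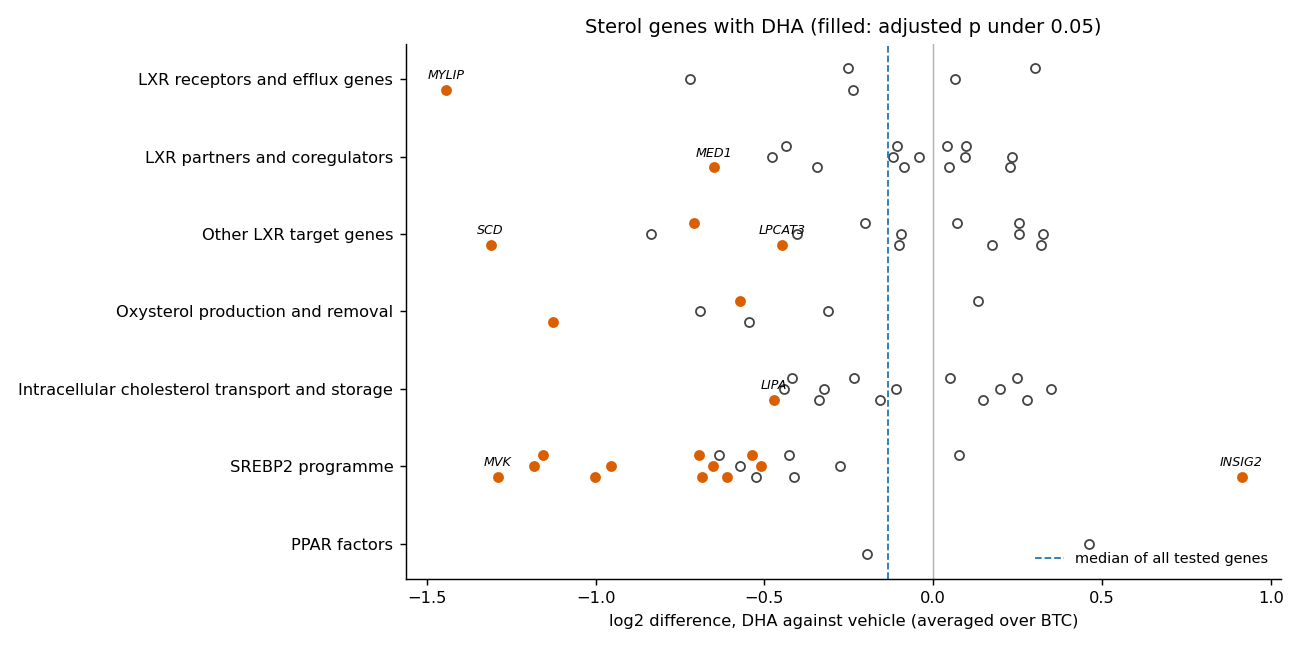
Log2 difference between DHA and vehicle (horizontal axis), averaged over BTC, for the 6 genes and 6 lists of related genes (rows), 1 point a tested gene; filled orange points have an adjusted p under 0.05 and the dashed line is the median of all tested genes at -0.13. MYLIP is the lowest of its row, and INSIG2 at 0.91 is the one filled point above 0.

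Set against oleic acid, the lists gave nearby counts from the same DHA libraries. The SREBP2 programme had 1 rise and 11 falls of 19, and the other LXR targets 0 rises and 3 falls of 14. Of all tested genes 8.96% fell and 2.4% rose in that comparison. SCD fell by 1.18 (adjusted p = 1.86e-04). NPC1, which carries cholesterol out of lysosomes, rose by 0.45 (adjusted p = 0.0276), a call kept in 24 of 30 single-library omissions, 10 of 14 settings and 2 of 5 omissions of an experiment. It averaged 76.7 ± 37.7 CPM with DHA and 54.2 ± 19.0 CPM with oleic acid.

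With oleic acid against vehicle, and with BTC against its vehicle, 0 genes of the 6 lists passed, and limma, edgeR and DESeq2 called 0 over all genes. The list medians then ran from -0.18 to 0.10 with oleic acid and from -0.35 to 0.04 with BTC. The lowest of these, with BTC, was that of the 2 tested PPAR genes.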

How the data were processed

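RNA of 30 LX2 cultures in 6 groups was profiled as QuantSeq 3′ tags, per the labels' protocols. The submitters' processing notes name STAR 2.5.3a as aligner and HTSeq 0.6.0 as counter. The build, annotation and strand setting are not given in the sources used here. The deposited table holds CPM values that the authors scaled to a common total per library. Values were whole multiples of 1 read within 0.01 read for 100% of values, and 0 columns lacked a sample. Symbols came from a table of Ensembl identifiers, which gave one to 42084 of 61597 genes.

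The main test was limma 3.58.1 (R 4.3.3, trend) on log2(CPM + 1), two-sided, with group and experiment as terms in 1 fit of all 30 libraries. It covered the 15137 genes that reached 1 CPM in 5 or more libraries, with Benjamini-Hochberg adjustment over all of them and calls at an adjusted p under 0.05. Differences on that scale understate changes of low genes. Alternatives were edgeR 4.0.16 and DESeq2 1.42.0 on recovered reads, other pseudocounts, filters and scalings, and omissions of libraries. The replicate numbers pair libraries: 75 of 75 same-experiment pairs had deviations correlating at 0.119 or more (median 0.507), and the labels name the experiment. Tests were checked on simulated data, where DESeq2, an alternative only, called more unchanged genes than limma or edgeR, and the limit set on such calls was relaxed after that.

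The 6 genes and the lists were chosen with earlier results of these data known. Named in full were the 6 genes, the 3 genes most like each, and from each list up to 4 with the smallest p plus a fixed set of regulators. Calls on lists describe these libraries only, as the lists were not tested as sets. Some genes of these lists, and 1 list, are not reported here.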

Additional observations from a re-analysis of the deposited data

Results flagged for a closer look

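Of 36 sets of 5 libraries (6 genes in 6 groups), 5 held a library far from its fellows by Dixon's criterion, which by chance marks about 1 in 20. ABCA1 stood at 16.61 CPM in OLA+Veh 1 and at 18.33 CPM in Veh+Veh 1, where the other libraries of those groups held 3.51 to 5.30 and 3.91 to 7.42 CPM. MYLIP stood at 7.011 CPM in DHA+BTC 2 and at 13.13 CPM in OLA+Veh 1, where the others held 0 to 1.64 and 2.06 to 4.19 CPM. SCARB1 stood at 68.73 CPM in Veh+Veh 5, where the others held 37.6 to 41.2 CPM.

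ABCA1 was higher with oleic acid than with vehicle in every experiment with BTC and lower in every experiment without BTC. The differences ran from 0.04 to 0.87 with BTC and from -0.76 to -0.04 without. Of all tested genes 3.33% were lower in all 5 experiments without BTC, and the share with both patterns was not counted. The interaction was 0.6815 on the log2 scale, and limma did not call it (adjusted p = 0.723).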

How the results depend on the processing

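With DHA against vehicle the MYLIP call held in all 14 alternatives and all 35 omissions of a library or an experiment, at -1.605 to -1.083 in the omissions. With DHA against oleic acid it was lost without the replicate block (-1.241, adjusted p = 0.119) and without the 3 shallowest libraries (-0.8584), and omissions ran from -1.426 to -0.9479. NR1H3 became called in 1 omission against vehicle (-1.006 to -0.4976 over all) and in 5 against oleic acid (-1.093 to -0.5099). Without the replicate block the MYLIP call of DHA against vehicle with BTC was also lost (-1.431, adjusted p = 0.481). In the comparisons averaged over the other factor the block changed no other call among the 6 genes, but the number of genes called moved with it. Against vehicle 1621 genes were called, 104 with no replicate block, 950 with edgeR, 1014 with only the groups compared, 784 with 1 value per experiment, 577 without the 3 shallowest libraries, 849 without the DHA libraries of experiment 5, and 772 to 2073 in omissions. Against oleic acid 1719 were called, 68 with no replicate block, 965 with edgeR, 771 with 1 value per experiment, 541 without the 3 shallowest, 905 without the DHA libraries of experiment 5, and 603 to 2104 in omissions. The split moved with scaling: 530 rises and 754 falls with median-of-ratios scaling, 454 and 496 with edgeR, 636 and 734 with DESeq2, against vehicle.

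Signs turned only for differences that were not called. With DHA against vehicle, ABCG1 was -0.1406 at a pseudocount of 0.25, -0.2859 without the 3 shallowest and -0.1386 without the DHA libraries of experiment 5 (omissions -0.1753 to 0.1786). VLDLR was 0.01064 with quantile normalization, 0.09434 without the 3 shallowest and 0.08031 without the DHA libraries of experiment 5. RXRA was 0.08025 with median-of-ratios scaling, 0.04133 with quantile normalization, 0.05813 with edgeR and 0.05975 with DESeq2 (omissions -0.1405 to 0.06679). With DHA against oleic acid, SCARB1 was 0.05776, 0.07817, 0.05427 and 0.06043 under the same 4 settings (omissions -0.1219 to 0.008448), and ABCA1 was -0.0144 without the 3 shallowest and -0.01912 without the DHA libraries of experiment 5 (omissions -0.02027 to 0.5684). Without the BTC libraries of experiment 2, oleic acid against vehicle gave NR1H3 -0.1167 and ABCA1 -0.03329. Omissions there ran from -0.165 to 0.3942 for NR1H3, -0.127 to 0.18 for NR1H2 and -0.1827 to 0.1662 for ABCA1. With BTC against its vehicle, MYLIP was -0.2305 without the BTC libraries of experiment 2, NR1H3 -0.03657 without the DHA libraries of experiment 5, SCARB1 -0.045 without the 3 shallowest and ABCA1 0.006051 with DESeq2. Omissions there ran from -0.2305 to 0.2909 for MYLIP, -0.1562 to 0.2859 for NR1H3, -0.0467 to 0.06966 for SCARB1 and -0.3786 to 0.1077 for ABCA1. The cause of these changes was not tested.

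What depth limits is the low genes: ABCG1, with at most 11 reads a library, could not be called either way, and a filter of 5 CPM in 5 libraries left it out. For all 6 genes the fit on only the groups compared does not apply to BTC, which uses every group. Of 22 listed genes called with DHA against vehicle, 18 stayed called after every single-library omission, 14 after every experiment was left out in turn, and 4 under every setting as well.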
